A study of Mus musculus with 2 samples.

Results

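The 9 genes described here are ligands and receptors of the tumour necrosis factor (TNF) family that carry costimulatory signals between immune cells. The ligands are Cd40lg, Tnfsf4 (OX40 ligand), Tnfsf9 (4-1BB ligand) and Tnfsf11 (RANK ligand), and the receptors are Cd40, Tnfrsf4 (OX40), Tnfrsf9 (4-1BB), Tnfrsf18 (GITR) and Cd27. They were taken by symbol from an expression matrix of 12638 genes, and all 9 were present. The matrix held 12458 cells of 4 C57Bl6 mice, measured by single-cell 5′ RNA sequencing. In 2 of the mice Havcr2, the gene of the receptor TIM-3, was targeted (KO1, KO2), and the other 2 carried floxed Havcr2 alleles (Havcr2fl/fl) and served as controls (WT1, WT2). No Cre driver, and no cell type in which Havcr2 was deleted, is named in the labels. Every mouse carried a subcutaneous tumour of MC38-OVAdim, a colon carcinoma line with ovalbumin. From each mouse, CD45-positive cells enriched for dendritic cells were taken from the tumour, from the node that drains it (dLN) and from one that does not (ndLN), which gave 12 samples. Mice KO1 and WT1 shared 1 droplet channel, and KO2 and WT2 shared the other.

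TNF-family receptors act as trimers on the cell surface and recruit TRAF adaptors, which switch on NF-kB and support survival and division. OX40, 4-1BB, GITR and CD27 are costimulatory receptors of lymphocytes, and their ligands are displayed mainly by antigen-presenting cells. The CD40 pair runs the other way, since helper T cells carry the ligand and the receptor licenses dendritic cells, macrophages and B cells. Tumour-infiltrating regulatory T cells are known for high OX40, 4-1BB and GITR in other mouse models.

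Values are levels, that is, the molecules of a gene (unique molecular identifiers, UMIs) per 10000 UMIs of a cell, averaged over the cells of a class in a mouse and tissue. The assay reads the 5′ end of a transcript, so a level is a share of a cell's molecules and carries no length term. Cells were put into 11 classes by marker genes that include none of the 9: regulatory T cells (Treg), other CD4 T cells, CD8 T cells, natural killer (NK) cells, B cells, plasmacytoid dendritic cells (pDC), mature dendritic cells (mature DC), the conventional types cDC1 and cDC2, monocytes and macrophages. The gates took 10354 of the 12458 cells, or 83.1%, and 77 combinations of mouse, tissue and class held at least 20 cells. The 12 samples held 3031124 to 28498154 UMIs, and the median tumour cell had 15191 UMIs, the median dLN cell 4520 and the median ndLN cell 4633. In the deposited barcodes, 65 cell barcodes recurred by sequence in both channels. Havcr2 itself had levels of 0.112 and 0.0584 in tumour macrophages of KO1 and KO2 against 0.683 and 0.665 in those of WT1 and WT2, which differed by limma (log2 difference −2.08, adjusted p = 0.00361). In tumour CD8 T cells its level was 1.43 in KO1 and 1.70 in WT1, so its transcript was still detected in the CD8 T cells of that knockout mouse. Groups of 2 mice per genotype stand behind every p-value of KO against WT.

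Tnfrsf4, Tnfrsf9 and Tnfrsf18 lie on chromosome 4 (GRCm38), all on the plus strand. Tnfrsf4 runs from 156013843 to 156016612 and Tnfrsf18 from 156026164 to 156028895, so the start of Tnfrsf18 is 12.3 kb beyond that of Tnfrsf4. Tnfrsf9 (150914562 to 150946102) starts 5.10 Mb before Tnfrsf4. Windows of 250 bases before to 50 after a transcript start (RefSeq, GRCm38.p6) were held for 5 members, with 2 starts for Tnfrsf9. Windows of Tnfrsf9 and Tnfrsf18 are printed because the results turn on these receptors, and because their levels moved together in T cells of the tumour. Capitals mark matches, on either strand, to a broad kappaB pattern (GGG, then any 5 bases, then CC) or to the AP-1 pattern TGANTCA.
Tnfrsf9, upstream start, chr4:150919905-150920204, plus strand: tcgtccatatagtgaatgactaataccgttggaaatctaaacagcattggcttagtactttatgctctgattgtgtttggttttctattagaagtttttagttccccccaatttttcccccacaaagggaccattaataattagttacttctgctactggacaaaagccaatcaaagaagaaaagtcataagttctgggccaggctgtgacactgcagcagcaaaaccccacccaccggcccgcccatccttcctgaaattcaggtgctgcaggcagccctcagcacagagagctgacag
Tnfrsf9, downstream start, chr4:150927749-150928048, plus strand: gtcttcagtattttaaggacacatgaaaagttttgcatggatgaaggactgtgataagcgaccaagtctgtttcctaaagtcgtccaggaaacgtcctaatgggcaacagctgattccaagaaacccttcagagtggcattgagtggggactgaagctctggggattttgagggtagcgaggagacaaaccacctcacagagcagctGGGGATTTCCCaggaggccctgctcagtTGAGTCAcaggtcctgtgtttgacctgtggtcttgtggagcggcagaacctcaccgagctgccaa
Tnfrsf18, chr4:156026072-156026371, plus strand: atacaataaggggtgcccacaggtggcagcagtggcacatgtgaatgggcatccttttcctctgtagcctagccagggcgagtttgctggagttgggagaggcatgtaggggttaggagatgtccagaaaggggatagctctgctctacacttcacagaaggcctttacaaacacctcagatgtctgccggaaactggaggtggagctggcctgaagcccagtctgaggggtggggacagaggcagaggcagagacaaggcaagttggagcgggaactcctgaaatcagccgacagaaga
The downstream Tnfrsf9 window held 2 overlapping kappaB matches and 1 AP-1 match. The kappaB pattern is common, with a match in 50.8% of the 32851 promoter windows, and TGANTCA was found in 7.81%. Neither pattern was found in the upstream Tnfrsf9 window or in that of Tnfrsf18. These matches describe letters and say nothing of binding, which was not measured.

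The plot of UMIs by class shows which cells held each member. Cd27, the receptor of CD70, had 56.1% of its 3999 UMIs in CD8 T cells. Tnfrsf4 was split between 2 small classes, since mature DCs held 36.0% of its 8804 UMIs and Treg cells 32.3%, although these classes held 4.90% and 1.16% of all UMIs. Of the 10966 Cd40 UMIs, macrophages held 36.4% and mature DCs 27.3%. Of the 5814 Tnfsf9 UMIs, macrophages held 34.7% and cDC2 22.8%. Both macrophage shares lay below the 38.9% of all UMIs that macrophages held, while cDC2 held 2.78%. Of the 2121 Cd40lg UMIs, CD4 T cells held 41.6%, while 42.1% lay in cells that no gate took. Tnfsf4 was close to the limit of detection, with 72 UMIs in all 12458 cells.

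**Figure D1:**
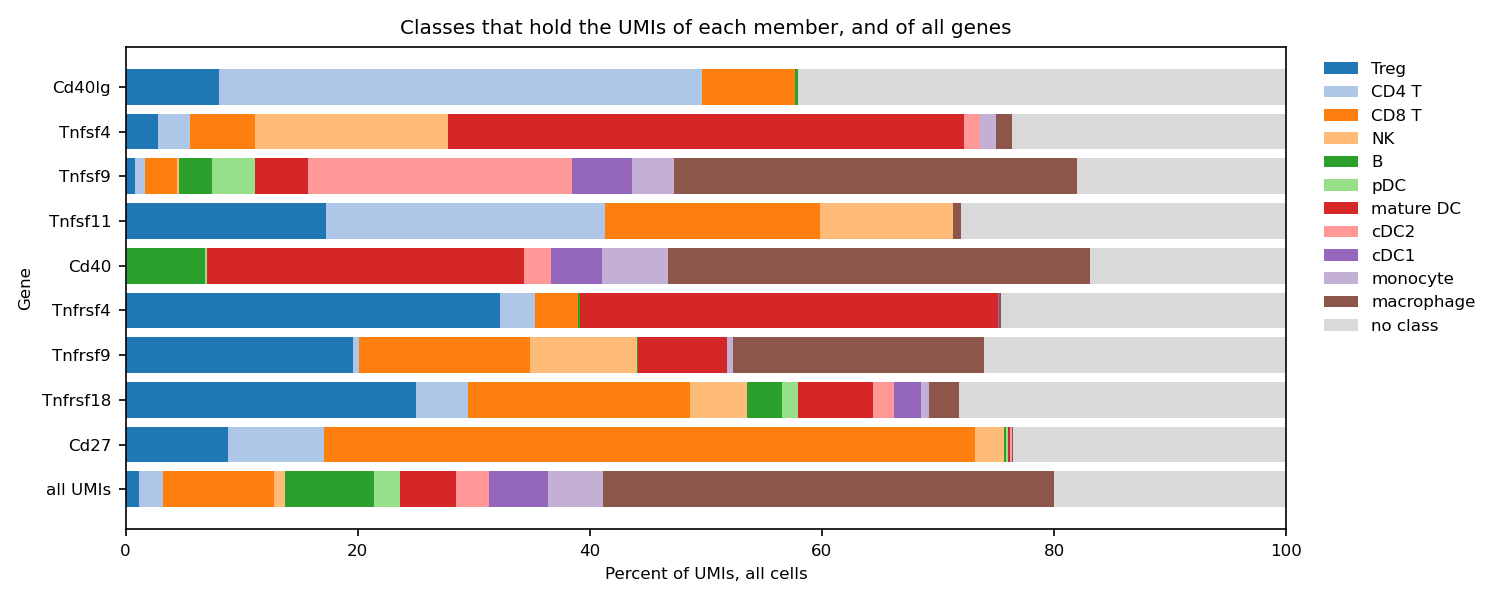
Percent of the UMIs of each member (bars, 1 per gene) and of all genes together (lowest bar) held by each class, over all 12458 cells; grey stands for cells of no class. Mature DCs and Treg cells hold 36.0% and 32.3% of Tnfrsf4 but 4.90% and 1.16% of all UMIs.

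**Figure D2:**
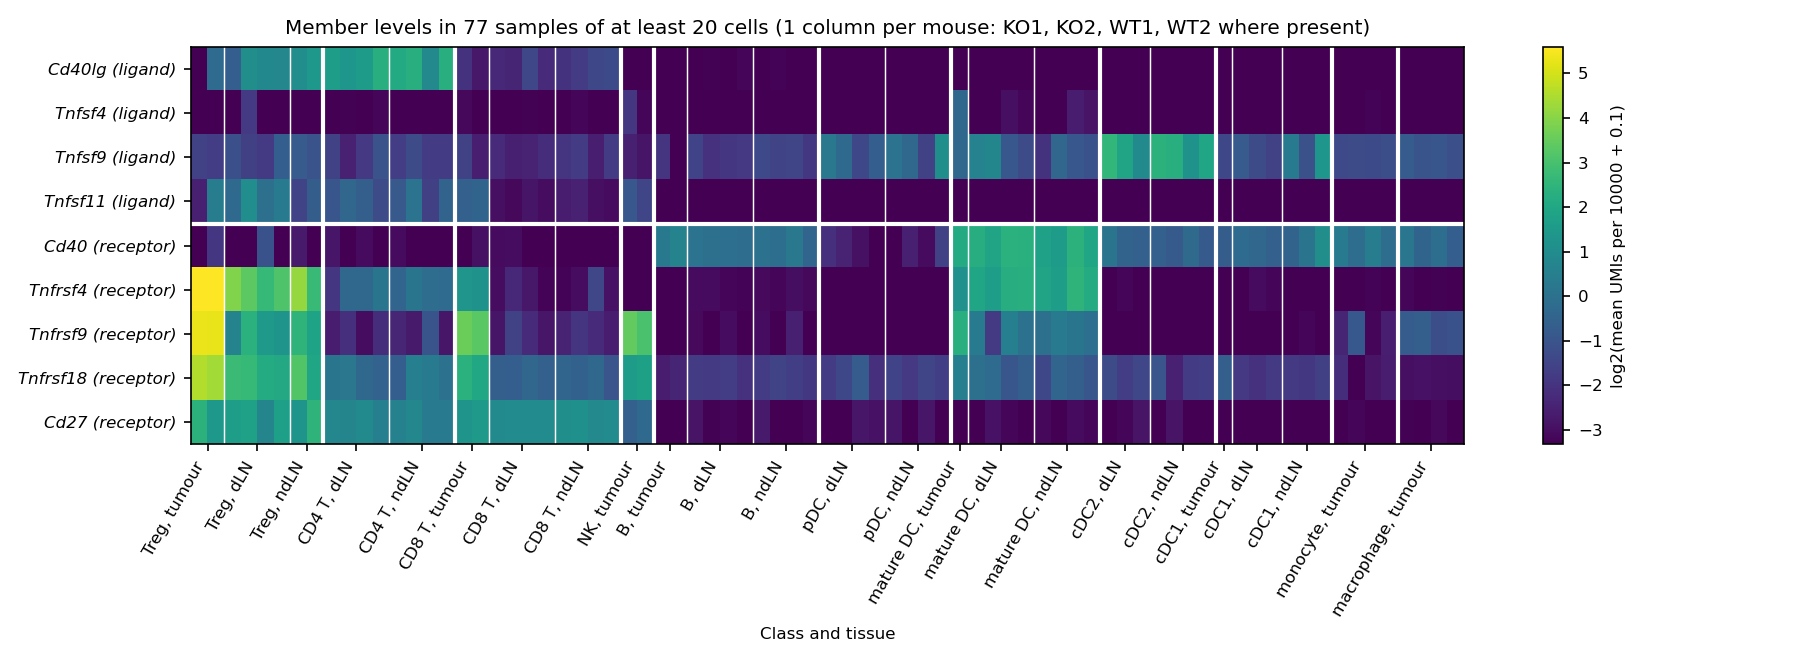
Level of each member (rows, ligands above receptors) in the 77 samples of at least 20 cells (columns, grouped by class and tissue), as log2(UMIs per 10000 + 0.1). The brightest columns for Tnfrsf4, Tnfrsf9 and Tnfrsf18 are the 2 tumour Treg samples, and the brightest columns for Cd40lg are node CD4 T samples.

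Among the ligands, Cd40lg marked CD4 T cells. Its level in CD4 T cells was 3.02 and 2.498 in the dLN of KO1 and KO2 and 2.95 and 4.69 in that of WT1 and WT2. In CD8 T cells of the dLN it was 0.103 and 0.0894 in KO1 and KO2 and 0.274 and 0.111 in WT1 and WT2. The lowest CD4 T level lay above the highest CD8 T level in dLN and in ndLN. Cd40lg was higher in CD4 T than in CD8 T cells by 3.81 ± 0.270 log2 units in dLN (difference ± SE, limma, adjusted p = 8.22e-12) and by 3.53 ± 0.248 in ndLN (adjusted p = 2.29e-12). Between these classes 3 of 8 members were called in each node, beside 2.47% of all genes in dLN and 3.07% in ndLN. No UMI of Cd40lg was found in 410 mature DCs of the dLN, which allows a share of up to 0.732% of cells with a UMI, nor in the 154 NK cells of all tissues, which allows up to 1.95%.

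Tnfsf11, whose product binds RANK on dendritic cells and osteoclast precursors, ran with the same T cells at lower levels. It stood at 0.421 and 0.662 in dLN CD4 T cells of KO1 and KO2 and at 0.544 and 0.314 in those of WT1 and WT2. In dLN Treg cells the levels were 0.718 and 1.98 in KO1 and KO2 and 0.878 and 1.18 in WT1 and WT2, all above those of CD4 T cells there. In ndLN the order was the other way in the 2 mice with at least 20 Treg cells, at 0.256 in Treg cells against 0.962 in CD4 T cells of KO2, and 0.520 against 0.612 in WT2. CD8 T cells of the dLN had between 0.0147 and 0.0409. Tnfsf11 was higher in CD4 T than in CD8 T cells by 2.17 ± 0.219 log2 units in dLN (limma, adjusted p = 3.02e-08).

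Tnfsf9, the ligand of 4-1BB, was led by cDC2. Its level in ndLN cDC2 was 5.24 and 4.84 in KO1 and KO2 and 2.23 and 3.82 in WT1 and WT2. In ndLN cDC1 of at least 20 cells it was 1.14 in KO2 and 0.358 and 2.49 in WT1 and WT2, so the ranges of cDC2 and cDC1 overlapped there. In dLN cDC2 it was 5.91 and 3.56 in KO1 and KO2 and 1.82 in WT1, against 0.493, 0.317 and 0.230 in cDC1 of the same mice, with no overlap. In the WT2 dLN, below 20 cells, it was 6.94 in 17 cDC2 and 0.0670 in 18 cDC1. The cDC2 value of WT2 lay above both KO values, so the genotypes overlapped in dLN cDC2. The difference of cDC1 from cDC2 was −3.00 ± 0.381 log2 units in dLN (limma, adjusted p = 5.55e-07) and −1.80 ± 0.387 in ndLN (adjusted p = 8.25e-04). It was the 1 member of 8 called between these classes in each node, beside 11.1% of all genes in dLN and 16.7% in ndLN. Tnfsf9 was also lower in pDC than in cDC2, by −2.34 ± 0.361 in dLN (limma, adjusted p = 6.86e-06) and −2.15 ± 0.354 in ndLN. It was 1 of 2 members called there in each node, both lower in pDC, beside 21% of all genes in dLN and 31% in ndLN. Tumour macrophages had 0.499 and 0.401 in KO1 and KO2 and 0.422 and 0.357 in WT1 and WT2.

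Tnfsf4 reached its highest level, 0.708, in the 30 mature DCs of the WT1 tumour, the only tumour sample with 20 or more of these cells. In mature DCs of the nodes it was at 0 in KO1 and KO2 and between 0.00778 and 0.0598 in WT1 and WT2. At this depth the node values rest on a few UMIs and no genotype difference was detectable.

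Among the receptors, Cd40 was highest in mature DCs, the migratory Ccr7-positive state. Its level in mature DCs was 4.60 and 3.59 in the dLN of KO1 and KO2 and 5.11 and 4.90 in that of WT1 and WT2. In dLN B cells it was 0.941 and 0.870 in KO1 and KO2 and 0.846 and 0.818 in WT1 and WT2. Among samples of at least 20 cells, every mature DC value of Cd40 lay above every B cell, cDC1 and cDC2 value of the same node. In dLN of these samples cDC2 overlapped B cells and cDC1, and the B cell values lay above those of cDC1. The 18 cDC1 cells of the WT2 dLN, below that minimum, had a value within the B cell range. Cd40 was higher in mature DCs than in cDC1 by 2.69 ± 0.349 log2 units (limma, adjusted p = 1.86e-07), than in cDC2 by 2.61 ± 0.349 and than in B cells by 2.25 ± 0.320 in dLN. It was low in pDC, with −2.30 ± 0.349 against cDC2 in dLN, and higher in B cells than in CD4 T cells by 3.07 ± 0.320. Against B cells 5 of 8 members passed in dLN and 4 of 8 in ndLN, all higher in mature DCs, beside 47.9% and 50.7% of all genes called in either direction. Of all genes, 1538 of 9181 were higher in mature DCs in dLN and 1574 of 9019 in ndLN. Tumour macrophages had 1.04 and 0.641 in KO1 and KO2 and 0.822 and 0.540 in WT1 and WT2.

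Mature DCs carried lymphocyte receptors as well. Tnfrsf4 was at 3.77 and 3.04 in dLN mature DCs of KO1 and KO2 and at 4.61 and 4.72 in those of WT1 and WT2, while cDC1 of the dLN held at most 0.0211 and cDC2 at most 0.0113. Tnfrsf9 was at 1.20 and 0.187 in dLN mature DCs of KO1 and KO2 and at 1.33 and 0.891 in those of WT1 and WT2, and it was at 0 in all cDC1 and cDC2 samples of the dLN. The T cell markers (5 genes) summed to 0.0684 and 0 in these mature DCs of KO1 and KO2. In those of WT1 and WT2 they summed to 0.0975 and 0.0381, against 36.9 to 43.3 in dLN Treg cells. The mature DC gate left out cells with several of these markers, so the low sums were set by the gate. Whether T cells added to the receptor UMIs of mature DCs was not tested. Of the 8 members tested in mature DCs over cDC1 in dLN, 5 passed, all of them higher, beside 35.2% of all genes called in either direction, and the median difference was 1.26 against −0.10 over all 9181 genes. Those 5 were Tnfrsf4 (5.19 ± 0.320), Tnfrsf9 (3.10 ± 0.406), Cd40 (2.69 ± 0.349), Tnfrsf18 (1.53 ± 0.238) and Tnfsf9 (0.99 ± 0.361). Tnfsf9 did not keep its direction between nodes: in ndLN it was −1.27 ± 0.387 in mature DCs over cDC1 (limma, adjusted p = 0.00914), where 5 of 8 members passed beside 36.7% of all genes. Without WT2 the ndLN difference was −0.71 (adjusted p = 0.205), without KO1 −0.97 (adjusted p = 0.0671), and the dLN difference without KO2 was 0.64 (adjusted p = 0.271). Against cDC2, Tnfsf9 was lower in mature DCs in both nodes, by −2.02 ± 0.361 in dLN and −3.07 ± 0.354 in ndLN. There 5 of 8 members passed in each node, 4 higher in mature DCs and Tnfsf9 lower, beside 34.6% of all genes in dLN and 41.7% in ndLN.

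Of 18 TRAF and NF-kB genes, which act below these receptors, 12 were higher in mature DCs over cDC1 in dLN, 1 was lower and 5 did not pass. The 18 had a median of 1.60, and 35.2% of all genes were called there in either direction. Against B cells of the dLN 10 of the 18 were higher in mature DCs and 4 lower, beside 47.9% of all genes called. The largest were Relb (3.68), the partner of the non-canonical NF-kB path, Birc2 (3.60), a ubiquitin ligase bound by TRAF2, Traf1 (2.55) and Tnfaip3 (2.54), the feedback inhibitor A20; Traf3ip3 was lower (−1.22). A second list, called the family list here, held other TNF-family ligands and receptors, and also Btla and Cd160, which are not TNF-family genes. Of its 19 genes tested in mature DCs over cDC1 in dLN, 3 were higher (Tnfrsf1b 4.09, Fas 2.88 and Tnfrsf11a 2.46, the receptor RANK). Another 5 were lower, led by Btla (−2.62), and the median of the list was −0.03. The share of the list that passed lay near the 35.2% of all genes called.

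**Figure D3:**
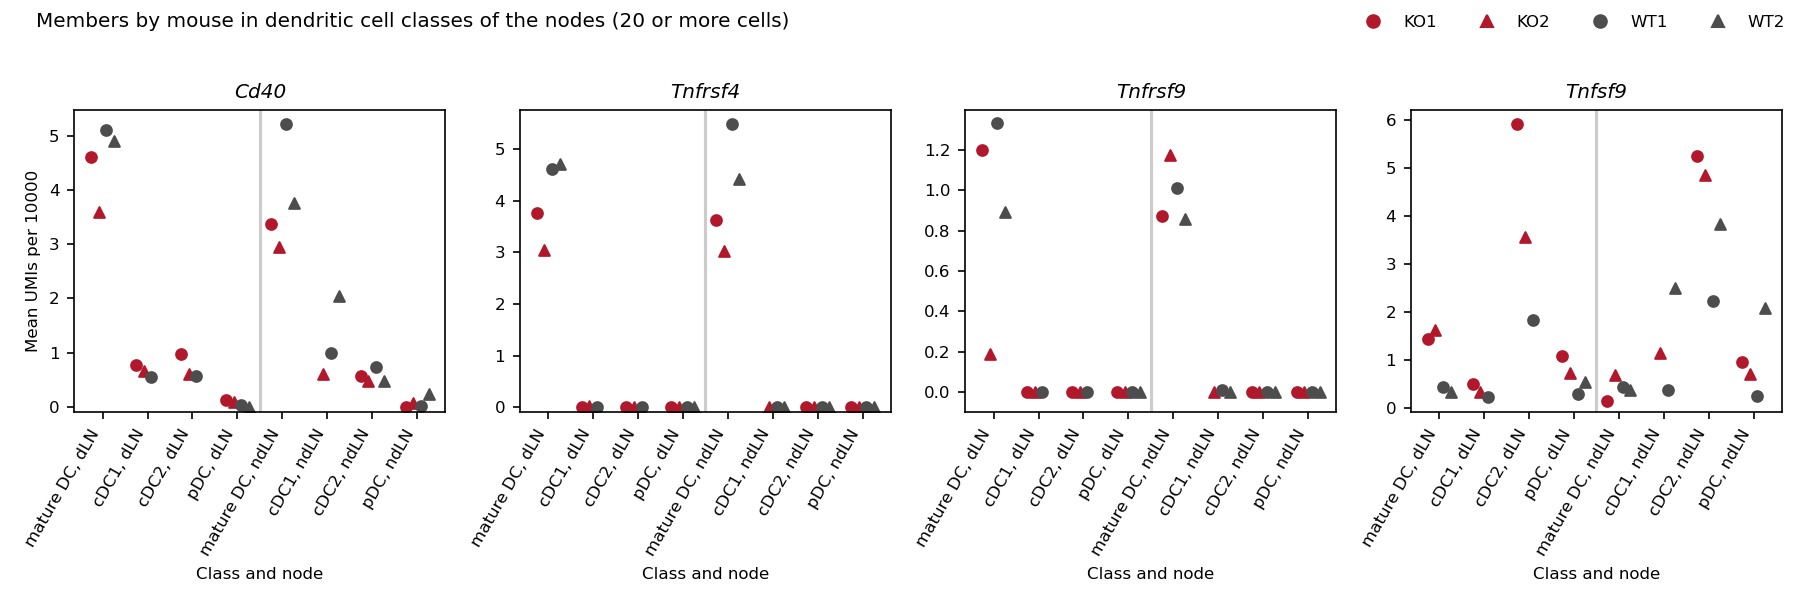
Levels (UMIs per 10000) of Cd40, Tnfrsf4, Tnfrsf9 and Tnfsf9 in dendritic cell classes of the dLN and ndLN; each point is 1 mouse with at least 20 cells (red KO, grey WT). Mature DCs stand above the other classes for the 3 receptors, and cDC2 lead for Tnfsf9.

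Treg cells had the highest Tnfrsf4, Tnfrsf9 and Tnfrsf18 of all classes in each tissue. The Treg gate also took T cells without a Foxp3 UMI by other Treg markers, and such cells were left out of the CD4 T class. The gate thus decided on which side of Treg over CD4 T such cells stood, and its part in the differences was not tested. A Foxp3 UMI was found in 61.3% of all gated Treg cells, and in 52% to 59.5% of those of the dLN by mouse. The share was lowest in the ndLN of KO2 (30.4%) and was 75% or more in the tumours. In the dLN Tnfrsf4 was at 14.8 and 10.0 in Treg cells of KO1 and KO2 and at 6.24 and 8.75 in those of WT1 and WT2. CD4 T cells of the dLN had 0.167 and 0.710 in KO1 and KO2 and 0.693 and 0.996 in WT1 and WT2. The lowest Treg value was above the highest CD4 T value, and the same held for Tnfrsf9 (at least 1.49 against at most 0.138) and Tnfrsf18 (at least 4.09 against at most 1.07). Of 8 members tested in Treg over CD4 T cells of the dLN, 6 passed, 5 higher and 1 lower, beside 16.9% of all genes called, with a median of 0.90 against 0.10 over all genes. By limma, Tnfrsf9 was higher by 3.92 ± 0.372 log2 units (adjusted p = 3.05e-09), Tnfrsf4 by 3.87 ± 0.293 (adjusted p = 2.64e-11) and Tnfrsf18 by 2.53 ± 0.218 (adjusted p = 5.20e-10). Cd40lg was lower by −1.20 ± 0.270 (adjusted p = 0.00174), a call lost without KO1 (−0.83, adjusted p = 0.0576).

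In that comparison Tnfsf11 was higher by 1.08 ± 0.219 (limma, adjusted p = 5.51e-04), but not by limma-voom (0.67, adjusted p = 0.272). Cd27 was higher by 0.71 ± 0.229 (limma, adjusted p = 0.0288), and this call was lost without KO1 (0.66, adjusted p = 0.132), without KO2 (0.60, adjusted p = 0.145) and without WT2 (0.56, adjusted p = 0.175). The Cd27 call was also lost by limma-voom (0.35, adjusted p = 0.479). By limma it was lost with a pseudocount of 0.02 (adjusted p = 0.317) and without cells of 5% or more mitochondrial UMIs (adjusted p = 0.214). In the dLN Treg cells with a Foxp3 UMI, Tnfrsf4 had levels of 21.0 and 13.5 in KO1 and KO2 and 7.11 and 9.03 in WT1 and WT2, each at or above the level of all gated Treg cells of that mouse. In ndLN the Foxp3-positive cells had lower Tnfrsf4 than all gated Treg cells in KO1 (4.23 against 6.65), KO2 (13.1 against 18.2) and WT2 (5.62 against 6.36), in samples of 6 to 11 Foxp3-positive cells. Tnfsf11 was lower in the Foxp3-positive cells of the dLN in all 4 mice, at 0.676 and 0.774 in KO1 and KO2 and 0.673 and 0.622 in WT1 and WT2, which overlaps the CD4 T range. In the dLN 8 of 19 genes of the family list were higher in Treg over CD4 T cells and 0 lower. They were led by Tnfrsf1b (2.54), the TNF receptor TNFR2, and Lta (2.10), a secreted ligand. Of the 18 adaptor genes 4 were higher and 0 lower, namely Traf1 (1.76), Tnfaip3 (1.40), Rel (1.27) and Birc2 (1.01). Of all genes 16.9% were called in this comparison, and the adaptor share lay near it.

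Against CD8 T cells of the dLN, 6 of 8 members passed, all higher in Treg cells, beside 23.7% of all genes. The differences ran from 1.06 ± 0.330 for Tnfsf9 (adjusted p = 0.0179 by limma) to 6.09 ± 0.293 for Tnfrsf4 (adjusted p = 2.47e-16). By limma the Tnfsf9 call was lost with a pseudocount of 0.5 (adjusted p = 0.118) and with means of log values over cells (adjusted p = 0.233). Leaving out WT1 (adjusted p = 0.0508) or KO1 (adjusted p = 0.0899) also lost it. The 3 members called in CD4 T over CD8 T cells of the dLN were all higher in CD4 T cells, with Tnfrsf4 at 2.22 ± 0.293 beside Cd40lg and Tnfsf11. With means of log values over cells this Tnfrsf4 call was lost (0.30, adjusted p = 0.247 by limma). Cd27 did not pass in CD4 T over CD8 T cells (−0.21 ± 0.229 in dLN and −0.50 ± 0.227 in ndLN). B cells were lower than CD4 T cells in Cd27 by −3.91 ± 0.229 in dLN, where 6 of 8 members passed beside 18.7% of all genes (7 of 8 beside 20.9% in ndLN), and Cd27 was at 0 in every cDC1 sample.

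The largest levels of the study's 9 genes were those of tumour Treg cells, whose counts were small, at 20 cells in KO1, 8 in KO2 and 45 in WT1. Tnfrsf4 was at 47.3 and 28.3 in tumour Treg cells of KO1 and KO2 and at 48.2 in those of WT1. Tnfrsf9 was at 40.3 and 17.7 in KO1 and KO2 and at 39.5 in WT1, and Tnfrsf18 at 23.8 and 14.1 in KO1 and KO2 and at 20.6 in WT1. In each of the 3 receptors the 8 cells of KO2 gave the lowest tumour value, and every tumour value lay above every dLN value. Foxp3-positive cells alone had Tnfrsf4 at 48.6 and 32.9 in tumours of KO1 and KO2 and at 50.2 in that of WT1.

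Tumour and dLN of the same mice were compared with samples of at least 5 cells, a minimum chosen after the data were seen, because none of the classes reached 20 cells on both sides in as many as 3 mice. Fewer cells raise the error of a level, and single samples of 5 to 19 cells decide some of these values. Of 31 tests of members in 6 classes, 10 passed. In Treg cells (3 mice) 4 of 8 members passed, 3 higher in tumour and 1 lower, beside 3.75% of all genes, with a median of 0.07 against −0.10 over all genes. By limma, Tnfrsf9 rose by 3.43 ± 0.345 log2 units (adjusted p = 1.81e-06), Tnfrsf4 by 2.03 ± 0.231 (adjusted p = 7.15e-06) and Tnfrsf18 by 1.75 ± 0.236 (adjusted p = 6.83e-05). Cd40lg was at 0 in tumour Treg cells of KO1 and KO2 and at 0.777 in those of WT1, against 0.530 and 2.03 in dLN Treg cells of KO1 and KO2 and 1.69 and 1.67 in those of WT1 and WT2. Those ranges overlapped between mice. Its difference was −2.70 ± 0.624 (adjusted p = 0.0126), and without KO2 it was −1.84 (adjusted p = 0.0654).

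CD8 T cells of the tumour had these receptors at lower levels than Treg cells. Tnfrsf9 was at 12.05 and 10.4 in tumour CD8 T cells of KO1 and KO2 and at 9.84 and 3.27 in those of WT1 and WT2. In dLN CD8 T cells it was at 0.0411 and 0.241 in KO1 and KO2 and at 0.114 and 0.0461 in WT1 and WT2. Tnfrsf4 was at 2.40 and 3.63 in tumour CD8 T cells of KO1 and KO2 and at 2.29 and 1.26 in those of WT1 and WT2, against at most 0.0977 in dLN. Every tumour value of both receptors, and of Tnfrsf18 (at least 1.71 against at most 0.676), lay above every dLN value. Samples WT2 and KO2 had 6 and 13 tumour CD8 T cells. Of 7 members tested 4 passed, all higher in tumour, beside 8.06% of all genes, with a median of 1.90 against 0.03 over all genes.

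Tnfrsf9 rose in tumour CD8 T cells by 5.36 ± 0.309 log2 units (limma, adjusted p = 7.36e-07), Tnfrsf4 by 4.06 ± 0.307 (adjusted p = 6.45e-06) and Tnfrsf18 by 2.49 ± 0.288 (adjusted p = 1.61e-04). Tnfsf11 rose by 1.90 ± 0.384 (adjusted p = 0.00735), and this call was lost without WT1 (1.75, adjusted p = 0.0609) and without KO1 (1.75, adjusted p = 0.0547). Cd27 differed by 0.07 ± 0.289 (adjusted p = 0.924). Macrophage markers (5 genes) summed to 0.237 and 0 in tumour CD8 T cells of KO1 and KO2 and to 0.340 and 0.251 in those of WT1 and WT2, against 0.582 and 0.173 in dLN CD8 T cells of KO1 and KO2 and 0.348 and 0.0812 in those of WT1 and WT2. The monocyte markers (4 genes, among them Ccr2 and Plac8, which T cells also express) summed to 20.6 and 17.7 in tumour CD8 T cells of KO1 and KO2 and to 12.8 and 11.0 in those of WT1 and WT2, against 5.93 to 9.55 in dLN. The CD8 T gate left out cells with most of the macrophage or of the monocyte markers, so the gate itself limited both sums. The part of these markers in the receptor results was not tested. The share of CD8 T cells with a UMI was also higher in tumour, at 103 of 132 (78.0%) for Tnfrsf9 and 63 of 132 (47.7%) for Tnfrsf4, against 34 of 997 (3.41%) and 19 of 997 (1.91%) in dLN. Median depths were 7580 UMIs in tumour and 5317 in dLN CD8 T cells. As a background, 0 of 182 dLN pDC (median 8972 UMIs) had a UMI of either receptor, which allows up to 1.65%.

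Genes of the family list also passed between tumour and dLN. In CD8 T cells 3 of 15 were higher in tumour, namely Fasl (3.46), the death ligand of cytotoxic cells, Cd160 (1.52) and Tnfrsf1b (1.47), and 1 was lower, Btla (−1.36), with a median of 0.29. Of 18 adaptor genes 2 were higher in tumour CD8 T cells, Nfkb2 (1.27) and Traf1 (0.94), and 0 lower, a share near the 8.06% of all genes called. In Treg cells 1 of 19 genes of the family list was higher, Fasl (1.94), and 2 were lower, Btla (−2.47) and Lta (−2.31). Of 18 adaptors 1 passed, Tnfaip3 at −1.32, near the 3.75% of all genes called.

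NK cells of the tumour held Tnfrsf9 and Tnfrsf18 but almost no Tnfrsf4. Tnfrsf9 was at 10.8 and 2.70 in tumour NK cells of KO1 and KO2 and at 8.06 in those of WT1. In dLN NK cells it was at 0.384 and 0.363 in KO1 and KO2 and at 3.15 and 1.06 in WT1 and WT2, in samples of 5 to 15 cells. The ranges overlapped between mice, and the tumour value was the higher in each of the 3 mice. Tnfrsf9 rose by 2.81 ± 0.525 (limma, adjusted p = 6.07e-05), beside 0.502% of all genes, a call lost by limma-voom (adjusted p = 0.221), without KO1 (1.96, adjusted p = 0.0691) and without KO2 (2.91, adjusted p = 0.0522). Tnfrsf18 was at 2.85 and 2.39 in tumour NK cells of KO1 and KO2 and at 3.24 in those of WT1, with a UMI in 68 of all 87 cells (78.2%), whereas Tnfrsf4 had 1 UMI in the 87 cells.

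The 3 receptors were also compared within cells, after every cell was thinned to 3000 UMIs. All 65 of the tumour Treg cells that could be thinned held UMIs of Tnfrsf4, Tnfrsf9 and Tnfrsf18 together, with 12 shallower cells left out; without thinning it was 96.1% of 77 cells. In dLN Treg cells 17 of 78 (21.8%) held all 3, with 26 left out, and 30.8% of 104 cells did so without thinning. In tumour CD8 T cells 32 of 127 (25.2%) held all 3, in dLN CD8 T cells 1 of 907, and in tumour NK cells 0 of 79. As a background, 0 of 178 dLN pDC held all 3 at the same depth.

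**Figure D4:**
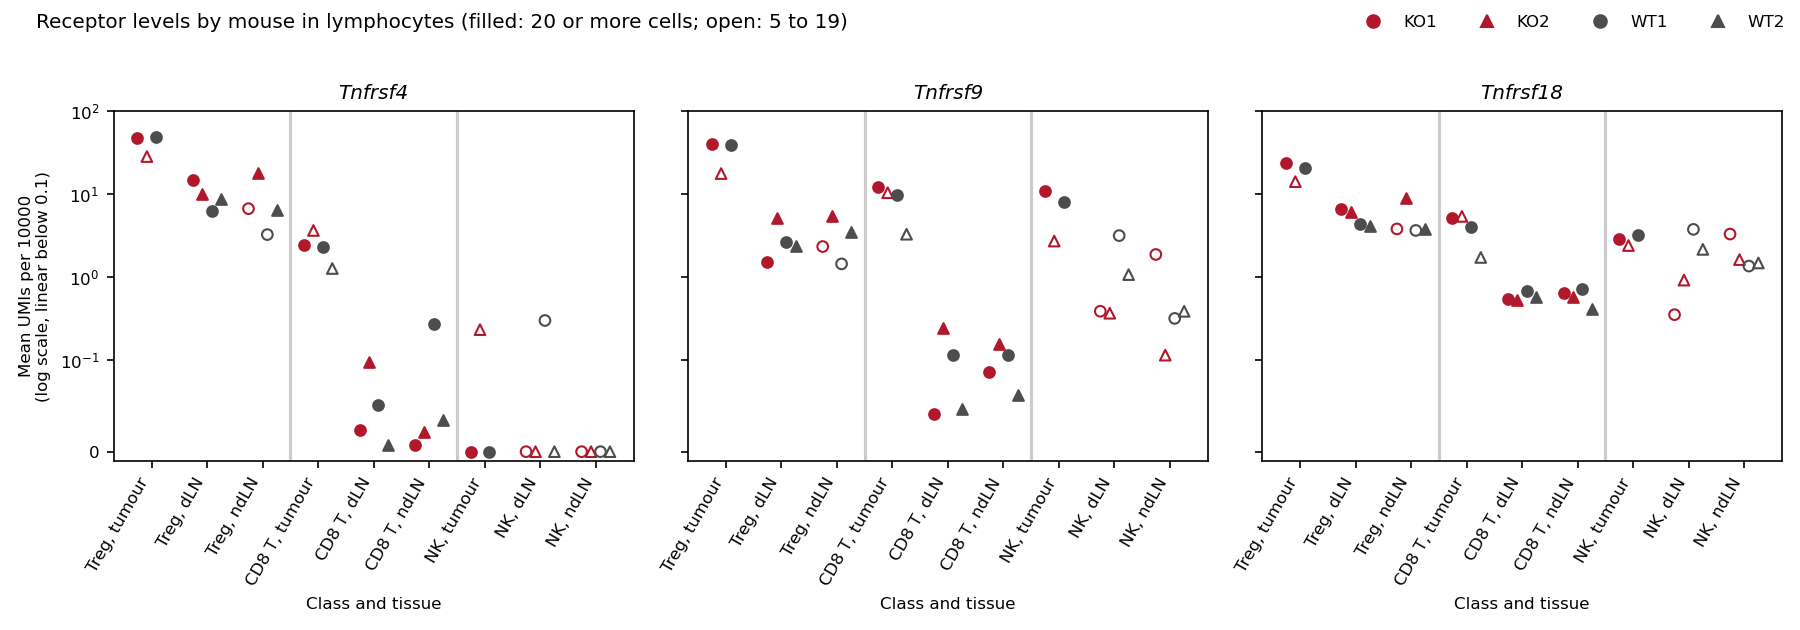
Levels (UMIs per 10000, log scale and linear below 0.1) of Tnfrsf4, Tnfrsf9 and Tnfrsf18 in Treg, CD8 T and NK cells by tissue; each point is 1 mouse (red KO, grey WT; open points have 5 to 19 cells). Within Treg cells and within CD8 T cells, tumour points lie above all dLN points of the same class, and Tnfrsf4 is near 0 in NK cells.

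Tumour macrophages, the most numerous class, held Tnfrsf9 in a minority of cells. There were 863 and 238 Tnfrsf9 UMIs in macrophages of KO1 and KO2 and 560 and 442 in those of WT1 and WT2, in 16.8% and 17.3% of the cells of KO1 and KO2 and 10.5% and 14.3% of those of WT1 and WT2. The top 5% of cells held 76.9% and 68.9% of these UMIs in KO1 and KO2 and 88.6% and 81.0% in WT1 and WT2. As a background of similar depth, tumour cDC1 (median 15567 UMIs, against 19183 in macrophages) had 0 of 71 cells with a Tnfrsf9 UMI, which allows up to 4.23%.

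The ratio of Tnfrsf9 to Tnfrsf4 differed between macrophages and Treg cells. Macrophages of KO1 and WT1 had 86.3 and 140 Tnfrsf9 UMIs per Tnfrsf4 UMI, while tumour Treg cells of the same mice had 0.908 and 0.794. Tumour CD8 T cells of these mice had 5.62 and 5.99. Tumour NK cells of KO1 and WT1 held 415 and 414 Tnfrsf9 UMIs and 0 Tnfrsf4 UMIs. NK markers were not counted in macrophages with and without Tnfrsf9. A CD3 gene was found in 6 of 355 macrophages with Tnfrsf9 (1.69%) and in 60 of 2156 without it (2.78%), with medians of 21512 and 18884 UMIs. A Foxp3 UMI was found in 2 of the 355 (0.563%) and in 10 of the 2156 (0.464%). Mature DC genes were found in 75 of the macrophages with Tnfrsf9 (21.1%) and in 374 of those without it (17.3%), and mature DCs of the WT1 tumour had a Tnfrsf9 level of 4.67. The macrophage gate left out cells with several T cell markers or with most of the mature DC genes, so the gate itself held the CD3 and mature DC shares low. The part of other cell types in the macrophage UMIs was not tested. Monocytes of the tumour had less Tnfrsf9, at 0.0917 and 0.450 in KO1 and KO2 and 0.0115 and 0.0697 in WT1 and WT2. Of 3 members tested in monocytes over macrophages all 3 passed, beside 43.7% of all genes. Tnfrsf9 was lower by −1.34 ± 0.210 (limma, adjusted p = 1.27e-04) and Tnfsf9 by −0.32 ± 0.115 (adjusted p = 0.0352), the Tnfsf9 call being lost without WT1 (adjusted p = 0.112) and without KO1 (adjusted p = 0.203). Cd40 was higher in monocytes by 0.38 ± 0.0924 (adjusted p = 0.00427), but with Leiden clusters as classes it was −0.31 (adjusted p = 0.216). Against the few macrophages of the dLN, Tnfrsf9 in tumour macrophages differed by 2.48 ± 0.521 (adjusted p = 0.120).

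Cd40 in cDC1 was the 1 member lower in tumour outside T cells. It was at 0.0671 and 0.0738 in tumour cDC1 of KO1 and KO2 and at 0.512 and 0.655 in those of WT1 and WT2, against 0.773 and 0.660 in dLN cDC1 of KO1 and KO2 and 0.559 and 0.855 in those of WT1 and WT2. The KO tumour values rest on 5 and 8 cells. The difference was −1.24 ± 0.352 (limma, adjusted p = 0.0438), 1 of 3 members tested beside 4.98% of all genes. It was −0.86 without KO1 (adjusted p = 0.181) and −0.94 without KO2 (adjusted p = 0.339). The call was also lost by limma-voom (adjusted p = 0.196), with Leiden classes (adjusted p = 0.334) and with no filter on low genes (adjusted p = 0.172). Mean logs and pseudocounts of 0.02 and 0.5 lost it as well, with adjusted p from 0.0555 to 0.0884 by limma. In B cells 0 of 3 members passed beside 0.604% of genes, and in macrophages 0 of 4 beside 0.468%.

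No member passed between draining and non-draining nodes by limma. In 6 classes 0 of 27 member tests passed, and 2 had an unadjusted p under 0.05. The share of all genes called was 0 in B cells and mature DCs, 0.0233% in pDC, 0.0477% in CD4 T cells, 0.0615% in CD8 T cells and 0.143% in cDC2. Limma-voom also called 0, and Leiden classes called 1. The 2 were Cd40lg in CD8 T cells (−0.46, adjusted p = 0.746) and Tnfsf9 in mature DCs (0.89, adjusted p = 0.866). Cd40lg in ndLN CD8 T cells was 0.146 and 0.189 in KO1 and KO2 and 0.277 and 0.299 in WT1 and WT2, each above the dLN value of its mouse given above. Of 24 tests of whether the node difference depended on genotype 0 passed, beside 0 in B cells and mature DCs, 0.0238% in CD4 T cells, 0.0246% in CD8 T cells and 0.0467% in pDC, with 5 at an unadjusted p under 0.05 and a lowest adjusted p of 0.438.

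No member passed the threshold between knockout and control mice. In 14 comparisons of class and tissue 0 of 70 member tests passed by limma, and the lowest adjusted p was 0.322. The share of all genes called was 0.036% in dLN B cells, 0.012% in dLN CD8 T cells, 0.0117% and 0.035% in pDC of the dLN and ndLN, 0.0358% in ndLN cDC2, 0.0813% in tumour macrophages and 0 in the other 8 comparisons. Differences ran from −1.12 to 1.78 log2 units, 39 of 70 were above 0, and 8 (11.4% of 70 against 5.02% of all tests) had an unadjusted p under 0.05. With 2 mice per genotype an absence of a call does not show that the genotypes were alike.

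The largest was Tnfsf9 in mature DCs of the dLN. Its level was 1.43 and 1.61 in KO1 and KO2 and 0.432 and 0.316 in WT1 and WT2, with no overlap, and 1.78 ± 0.435 as a log2 difference (limma, adjusted p = 0.322). Limma-voom on summed UMIs gave 2.29 (adjusted p = 4.36e-04), and the difference was 1.86 without KO1 (adjusted p = 0.00211) and 1.71 without KO2 (adjusted p = 0.02). The cells with Tnfsf9 were 7 of 40 and 5 of 22 in KO1 and KO2 and 23 of 196 and 11 of 152 in WT1 and WT2. Markers of cDC2, the class with the highest Tnfsf9, moved with it: the 4 genes summed to 0.516 and 0.896 in mature DCs of KO1 and KO2 and to 0.125 and 0.0177 in those of WT1 and WT2. Their part in the Tnfsf9 difference was not tested in a fit. In mature DCs with no cDC2 marker UMI, Tnfsf9 was at 1.25 and 0.536 in KO1 and KO2 and at 0.397 and 0.320 in WT1 and WT2, without overlap. In ndLN mature DCs it was at 0.146 and 0.677 in KO1 and KO2 and at 0.438 and 0.374 in WT1 and WT2, and the genotypes overlapped.

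Tnfrsf9 was at 0.504 and 0.549 in tumour macrophages of KO1 and KO2 and at 0.346 and 0.372 in those of WT1 and WT2, with no overlap. The difference of 0.45 ± 0.106 had an adjusted p of 0.620 by limma, and of 0.0271 with the droplet channel as a block (± 0.0972). In tumour monocytes the Tnfrsf9 difference was 1.24 ± 0.427 (adjusted p = 0.927 by limma), with the block adjusted p = 5.57e-04, and −0.37 with Leiden classes. In KO2, 2 monocytes held its 21 UMIs.

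Tnfsf9 in ndLN cDC2 differed by 0.76 ± 0.260 (limma, adjusted p = 0.730), with no overlap of the genotypes in the levels given above. Tnfrsf4 was lower without passing in ndLN mature DCs (−0.55 ± 0.224), in ndLN CD8 T cells (−0.96 ± 0.366) and in dLN CD4 T cells (−1.005 ± 0.388). Tnfrsf4 in ndLN mature DCs was 3.64 and 3.03 in KO1 and KO2 and 5.48 and 4.41 in WT1 and WT2, with no overlap. Cd40lg in ndLN CD4 T cells was 4.24 and 4.79 in KO1 and KO2 and 1.73 and 4.88 in WT1 and WT2. Both KO values lay between those of the WT mice, and the difference was 0.61 ± 0.278. Treg cells of the dLN had a Tnfrsf4 difference of 0.72 ± 0.313 and a Tnfrsf18 difference of 0.57 ± 0.243, with no overlap in Tnfrsf18 (6.60 and 6.11 in KO1 and KO2, 4.38 and 4.09 in WT1 and WT2) and an adjusted p of 0.978 by limma in each. Tumour Treg, CD8 T and NK cells had too few mice with 20 cells for a test of genotype.

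**Figure D5:**
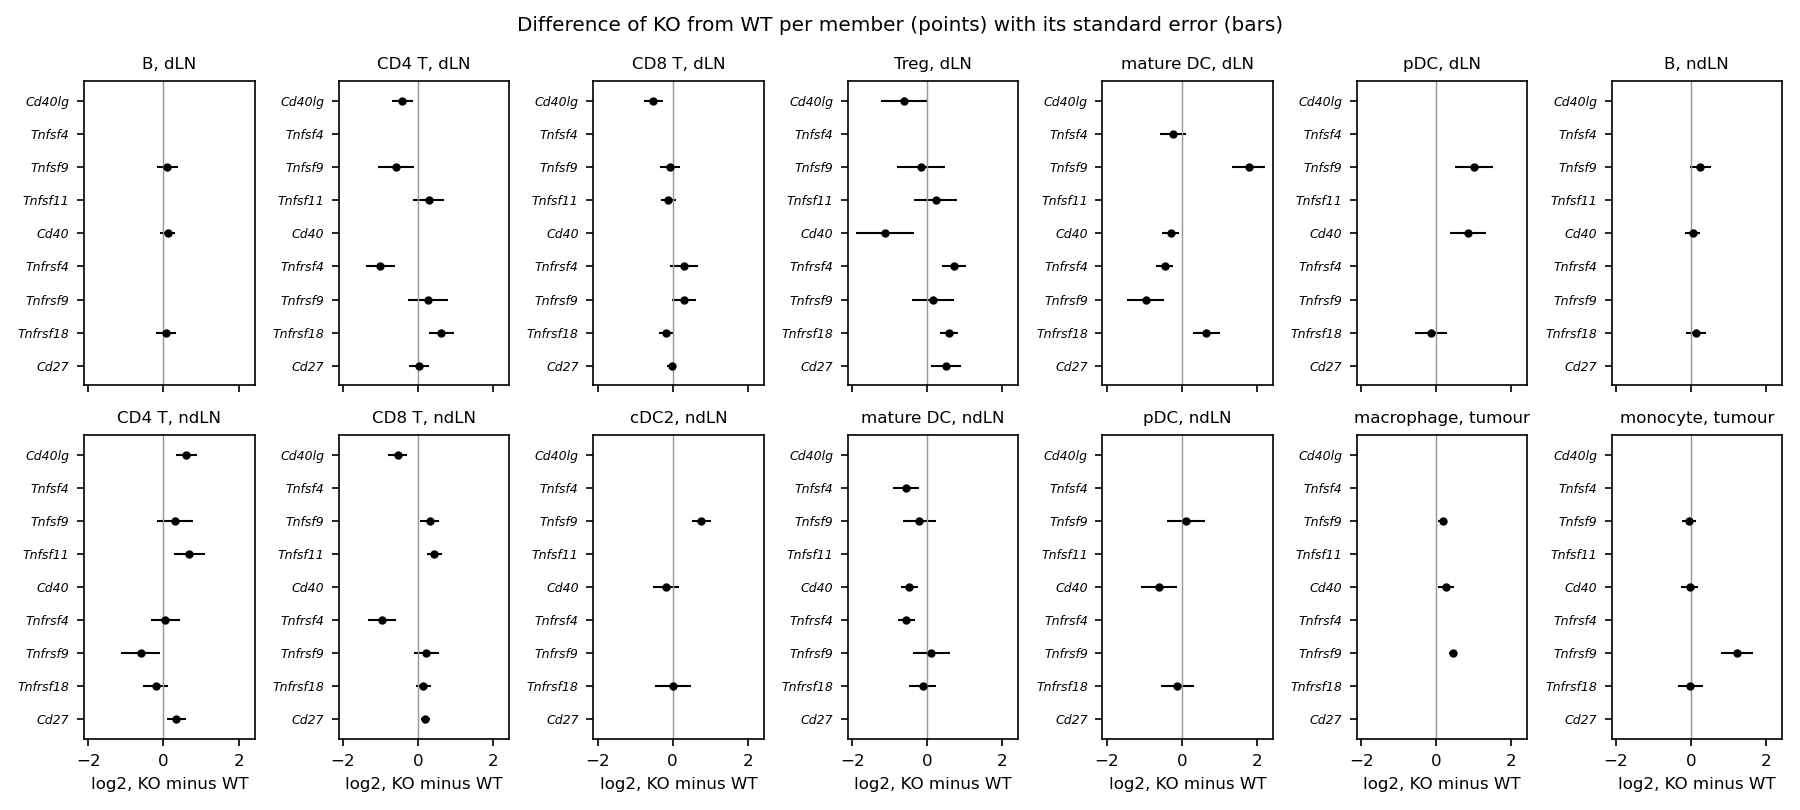
Difference of KO minus WT in log2(UMIs per 10000 + 0.1) for each member tested (points) with its standard error (bars), in 14 combinations of class and tissue. Most points lie within 1 log2 unit of 0, and Tnfsf9 in dLN mature DCs lies farthest out, at 1.78.

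Over the 77 samples the genes most like each member in log2 level were mostly genes of the same classes. These correlations are descriptions over samples that share mice and channels. Cd27 ran with Lat (r = 0.98) and Cd247, both parts of T cell receptor signalling, and Tnfrsf18 with Tigit (0.90), Icos and Il2rb. Cd40 ran with Marcksl1 (0.88), Icosl and Marcks, Tnfsf9 with Pmaip1 (0.77), Cd209e and Syngr2, and Cd40lg with 5830405F06Rik (0.88), Bcl11b and Itm2a. Tnfsf11 ran with Icos (0.86), Camk4 and Izumo1r, and Tnfsf4 with Gls2 (0.74), Aif1l and Scin.

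Sdf4, which encodes a calcium-binding protein of the Golgi, came first for Tnfrsf9 (r = 0.84), before Gzmb and AW112010, and second for Tnfrsf4 (0.80), beside H2-K1 and Icos. It is the gene just before Tnfrsf4, from 155992872 to 156013610 on chromosome 4, and ends 233 bases before the annotated Tnfrsf4 start and 85 before the RefSeq start. Its level was 27.6 in tumour Treg cells of KO1 and 29.3 in those of WT1, and 13.6 in tumour CD8 T cells of KO1 and 10.1 in those of WT1. In 58 other samples, outside Treg cells, mature DCs and tumour CD8 T cells, it ran between 0.939 and 2.58, with a median of 1.69. Within tumour CD8 T cells the Sdf4 level was 17.9 in KO1 and 20.6 in WT1 in cells with a Tnfrsf4 UMI, and 7.48 in KO1 and 3.13 in WT1 in cells without. Whether reads of this 5′ assay were divided between the neighbours as their transcripts are was not tested, so the levels of Tnfrsf4 carry that limit. The first 166 bases of the Tnfrsf4 window lie inside Sdf4, and it is not printed for that reason.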

How the data were processed

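Cells of 12 samples (4 mice, 3 tissues) had been pooled in 2 droplet channels and marked by oligo-tagged CD45 antibodies, per the labels' protocols. Reads had been processed with Cell Ranger 3.0.2 against mm10, as the submitters' processing notes list them; how cells were assigned to tags and filtered is not stated there. The authors deposited natural log values per gene and cell, made by scaling each cell to 10000 UMIs and adding 1 before the log. After the log was undone, every one of the 12458 cells added up to 10000, and 100% of values were whole multiples of 1 UMI within 0.01, so UMIs were recovered. No cell was removed and no doublet caller was used.

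Classes came from marker gates that hold no member. The gate rule went through 4 versions, judged on cells per class and on marker content, before member values were read. The members, the gene lists and the comparisons were chosen with earlier results of these data known. Of the 30 genes of the family list, Btla and Cd160 among them, 27 were in the matrix, and of 18 adaptor genes 18.

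Since the unit was a natural log, no count model was the main test. Levels were tested as log2(level + 0.1) with limma 3.58.1 (trend) in R 4.3.3, on samples of at least 20 cells and genes with a mean level of at least 0.05, with two-sided p-values adjusted by Benjamini-Hochberg at 0.05 over all genes of a comparison. Fold changes on this scale understate those of low genes. Genotypes were compared within a class with 1 spread over genotype and tissue, and tissues and classes with the mouse as a term. The channel, which the labels give, pairs KO1 with WT1 and KO2 with WT2; the deviations of same-channel mice correlated by −0.0104 to 0.325 over genes. Settings that were varied are the pseudocount, the filter, the cell minimum, mean logs, limma-voom on summed UMIs, Leiden classes (scanpy 1.11.5, leidenalg 0.10.2), cells with 5% or more mitochondrial UMIs (706 cells), each mouse in turn and the channel block. The named genes are the 9 members, the 3 genes with the highest Pearson r to each over 77 samples, and of the lists those past the threshold, at most 4 a direction. A gene that this rule names is not reported here. The cell minimums of 5 and 15, the Foxp3-positive cells and the mature DCs without cDC2 markers were chosen after seeing the data. Only the fit of KO against WT in dLN CD8 T cells was run on simulated data. The fits between nodes, tissues and classes were not. Intervals and upper limits cover counting error only. The mice are separate animals.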

Additional observations from a re-analysis of the deposited data

Results flagged for a closer look

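Dixon's test was run on 58 groups of 4 mice. A group was a member, class and tissue with all 4 mice at 20 or more cells and a mean level of at least 0.1. In 4 groups a mouse was far from the others, and chance gives about 1 in 20 groups. Cd27 in dLN Treg cells was low in WT1, at 1.56 against 3.07, 3.33 and 3.15 in KO1, KO2 and WT2. Cd40lg in dLN CD8 T cells was high in WT1, at 0.274 against 0.103, 0.0894 and 0.111 in KO1, KO2 and WT2. Tnfrsf9 in ndLN CD4 T cells was high in WT1, at 0.394 against 0.0965, 0.0570 and 0.0458 in KO1, KO2 and WT2. Tnfsf9 in ndLN CD4 T cells was high in KO2, at 0.324 against 0.207 in KO1 and 0.192 and 0.191 in WT1 and WT2.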

How the results depend on the processing

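Tests of KO against WT called 0 of 70 member tests as reported, 1 by limma-voom (Tnfsf9 in dLN mature DCs), 2 with the channel as a replicate block (Tnfrsf9 in tumour macrophages and monocytes) and 1 to 3 when a mouse was left out, with 3 without KO1; the other settings called 0. The block changed no other call. Leaving out 1 of 2 mice assumes that the lone mouse varies like the others. Tnfsf9 in ndLN pDC was called in opposite directions, at −1.24 without WT1 and 1.47 without WT2 (adjusted p = 0.0315 and 0.0256 by limma), against 0.11 with all mice. Cd40lg in ndLN CD4 T cells was 1.33 without WT2 (adjusted p = 0.00571 by limma) and −0.11 without WT1, a reversal. Without KO1, Tnfrsf9 was called in dLN mature DCs (−2.05) and in tumour monocytes (2.00), beside Tnfsf9 in dLN mature DCs, which was also the call without KO2. Leiden clusters as classes also turned the direction of Tnfrsf4 in dLN CD4 T cells (0.29) and of Tnfrsf9 in tumour monocytes (−0.37) for KO against WT, and of Cd40 in monocytes over macrophages (−0.31); they called 1 member between dLN and ndLN, Tnfsf9 in pDC, where the reported count is 0. The cause of these changes was not tested. Between classes, 52 to 78 tests passed in all settings but that of at least 50 cells, which left 26 of 43 in 6 comparisons. The 52 were of 106 tests in 15 comparisons with Leiden classes, against 131 tests in 17 as reported. The Leiden cluster given the Treg class held 84 cells. A T cell cluster of 486 cells, with Treg as 44.8% of its gated cells, was given no class. Tumour against dLN gave 7 to 11 calls against 10, and could not be fitted with at least 50 cells. It had 31 tests in 6 comparisons as reported. With Leiden classes, and without cells of 5% or more mitochondrial UMIs, it had 24 in 5. The cell minimums of 5 and 15 were chosen after seeing the data. Low levels rest on few UMIs in lymphocytes, whose classes had medians of 3073 to 7580 UMIs per cell, and tumour lymphocytes were few.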
